A study of Mus musculus with 2 samples.

Results

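The TGF-beta and BMP superfamily was read in single nuclei of mouse mesenteric perivascular fat, with its ligands as the sending side and its receptors and Smads as the receiving side. Its members were chosen by gene symbol alone, and 55 of the 32285 listed genes carried such a symbol. They were 27 ligands, 4 latent TGF-beta binding proteins, 7 type I receptors, 4 type II receptors, 2 co-receptors, 5 receptor-regulated Smads, 1 common Smad, 2 inhibitory Smads and 3 genes in none of these groups (Bmp1, a protease, Bmp2k, a kinase, and Tgfb1i1, a focal adhesion protein). Of these, 45 had at least 20 unique molecular identifiers (UMIs, each standing for 1 captured RNA molecule) in each library and are described by cell class.

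The study compared 2 single-nucleus libraries from mice of 11 weeks. One was labelled Prdm16 cKO, with the genotype Prdm16flox and AdopiQCre+ (spelled so in the label and AdipoQCre+ in the series text, Cre under the adiponectin promoter), and the other was its flox control, with Prdm16flox and no Cre, whose title calls it wt. The adiponectin promoter drives Cre in adipocytes, so other cell types were not the target of the deletion. Each genotype had 1 library, and how many animals it came from is not given in the sources used here. No difference below therefore has a replicate check and no p-value is given. The intervals are 95% intervals and cover counting error only.

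Ligands of the family bind a pair of type I and type II receptors, and the type I receptor then phosphorylates receptor-regulated Smads, which enter the nucleus with Smad4. TGF-beta and activin ligands act mainly through Smad2 and Smad3, and BMP ligands mainly through Smad1, Smad5 and Smad9. Smad6 and Smad7 are induced by the pathway and inhibit it, and latent binding proteins hold TGF-beta in the matrix.

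After filtering, 7374 nuclei with 62275986 UMIs remained in the library labelled Prdm16 cKO, and 10532 nuclei with 92779065 UMIs remained in the flox control library, with a median of 6521.5 UMIs a nucleus in the cKO-labelled and 7035 in the control library. Clusters were built without the superfamily genes and named by markers. The 9 classes that reached 100 nuclei in both libraries were compared. They held between 156 nuclei (dendritic-like) and 2942 nuclei (adipocyte-like) in the cKO-labelled library, and between 307 nuclei (B cell-like) and 4419 nuclei (adipocyte-like) in the control library. Adipocyte marker RNA was found in every class. Its level outside adipocyte-like nuclei lay between 21.6% and 49.4% of the adipocyte level in the cKO-labelled library and between 17.8% and 35.6% in the control library, and it was higher in the cKO-labelled library in all 8 other compared classes. Prdm16 itself stood at 22.3 CPM (a gene's UMIs scaled to a fixed total of the class) in cKO-labelled adipocyte-like nuclei and at 16.7 CPM in control ones, so these whole-gene counts do not check the genotype label. Only 28 barcodes were shared by the libraries.

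The class with the highest level of a member was the same in both libraries for 32 of the 45 members. In 17 of these the interval of the top class was also apart from that of each other compared class in both libraries. Levels below are in CPM with their intervals and are compared within a gene, not between genes. A class called highest or leading is so among the 9 compared classes, and for some genes a class with fewer nuclei stood above it.

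Ligands were spread over separate classes. Bmp6, a BMP known for its role in iron sensing by liver endothelium, stood at 682 CPM (644 to 721) in cKO-labelled vascular endothelial-like nuclei and at 661 CPM (631 to 692) in control ones. The next class, progenitor or fibroblast-like nuclei, had 128 CPM in the cKO-labelled library and 148 CPM in the control library. The vascular level was thus 5.31 times the next in the cKO-labelled library and 4.47 times the next in the control library. Bmp4, a BMP that commits precursors to the fat lineage, was highest in mesothelial-like nuclei, with 67.0 CPM (58.4 to 76.6) in the cKO-labelled library and 69.9 CPM (63.7 to 76.5) in the control library. Vascular endothelial-like nuclei came next for Bmp4 with 43.9 CPM in cKO-labelled and 35.1 CPM in control nuclei. Both of these ligands had levels that overlapped between the libraries in their top class.

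Tgfb2, a TGF-beta isoform, was highest in lymphatic endothelial-like nuclei at 189 CPM (164 to 216) in the cKO-labelled library and 166 CPM (150 to 184) in the control library. The clusters of this class differed for Tgfb2. Cluster 14 had 304 CPM in cKO-labelled and 276 CPM in control nuclei, and cluster 19 had 37.1 CPM in cKO-labelled and 37.3 CPM in control nuclei. Control nuclei of progenitor or fibroblast-like cluster 15 had 238 CPM. Tgfb3, another TGF-beta isoform, was highest in mesothelial-like nuclei at 40.9 CPM (34.2 to 48.5) in the cKO-labelled library and 44.2 CPM (39.4 to 49.5) in the control library. Tgfb1, the isoform best known for immune regulation, had no single leading class. It lay between 79.5 and 94.7 CPM in cKO-labelled macrophage-like, B cell-like and dendritic-like nuclei and between 82.8 and 111 CPM in the same control nuclei, against 9.32 CPM in cKO-labelled and 8.57 CPM in control adipocyte-like nuclei. In control Schwann-like nuclei Tgfb2 stood at 198 CPM, and in control smooth muscle-like nuclei Tgfb3 stood at 73.0 CPM, above these classes. Among the compared classes taken whole, the 3 TGF-beta isoforms thus led in immune, lymphatic endothelial and mesothelial classes. Single clusters differed. Progenitor or fibroblast-like cluster 15 had Tgfb3 at 40.9 CPM (27.4 to 58.8) in cKO-labelled and 75.9 CPM (59.9 to 94.8) in control nuclei. Cluster 2 of that class had 17.8 and 28.7 CPM. Tgfb1 stood at 88.3 CPM in cKO-labelled and 88.1 CPM in control nuclei of lymphatic endothelial-like cluster 14, and at 37.1 and 48.8 CPM in cluster 19.

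Gdf10, also called BMP3B, was highest in progenitor or fibroblast-like nuclei, with 32.8 CPM (28.2 to 38.0) in the cKO-labelled library and 32.1 CPM (28.1 to 36.5) in the control library. Bmp2, a BMP that macrophages of the gut wall make, was highest in macrophage-like nuclei at 17.3 CPM (12.6 to 23.1) in the cKO-labelled library and 19.8 CPM (16.0 to 24.2) in the control library. Inhba, the activin A subunit, was highest in mesothelial-like nuclei at 8.0 CPM in the cKO-labelled library and 8.70 CPM in the control library, below its smooth muscle-like level in both libraries. Inhbb, the activin B subunit, and Bmp3, a BMP that antagonises other BMPs, were highest in adipocyte-like nuclei among the compared classes. Inhbb had 12.7 CPM (11.6 to 13.8) there in the cKO-labelled library and 15.6 CPM (14.6 to 16.6) in the control library, and Bmp3 had 10.8 CPM (9.78 to 11.9) in the cKO-labelled library and 12.6 CPM (11.7 to 13.5) in the control library. Bmp3 was above this in Schwann-like nuclei, at 52.5 CPM in the cKO-labelled library and 22.0 CPM in the control library, and in cKO-labelled acinar-like nuclei at 29.4 CPM. Inhbb was above it in cKO-labelled granulocyte-like nuclei at 24.9 CPM. In cKO-labelled innate lymphoid-like nuclei Inhbb was at 115% and Bmp3 at 113% of the adipocyte level. Inhbb was at 110% in cKO-labelled pericyte-like nuclei and Bmp3 at 114% in cKO-labelled smooth muscle-like nuclei. Inhbb in progenitor or fibroblast-like cluster 15 had 16.9 CPM (8.75 to 29.6) in cKO-labelled and 28.6 CPM (19.1 to 41.0) in control nuclei. Cluster 2 had 5.94 and 5.64 CPM. Bmp5, Bmp8a, Bmp8b, Gdf6, Gdf9 and Gdf11 had at most 159 UMIs in either library, and their order of classes is set by few counts. The other 10 ligands stayed under 20 UMIs in at least 1 library. Bmp10 and Gdf1 had 0 UMIs in both, which allows up to 3 UMIs in each. Gdf5, Gdf15, Gdf3, Gdf7, Inhbc, Inhbe, Gdf2 and Bmp15 had between 0 and 19 UMIs.

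**Figure D1:**
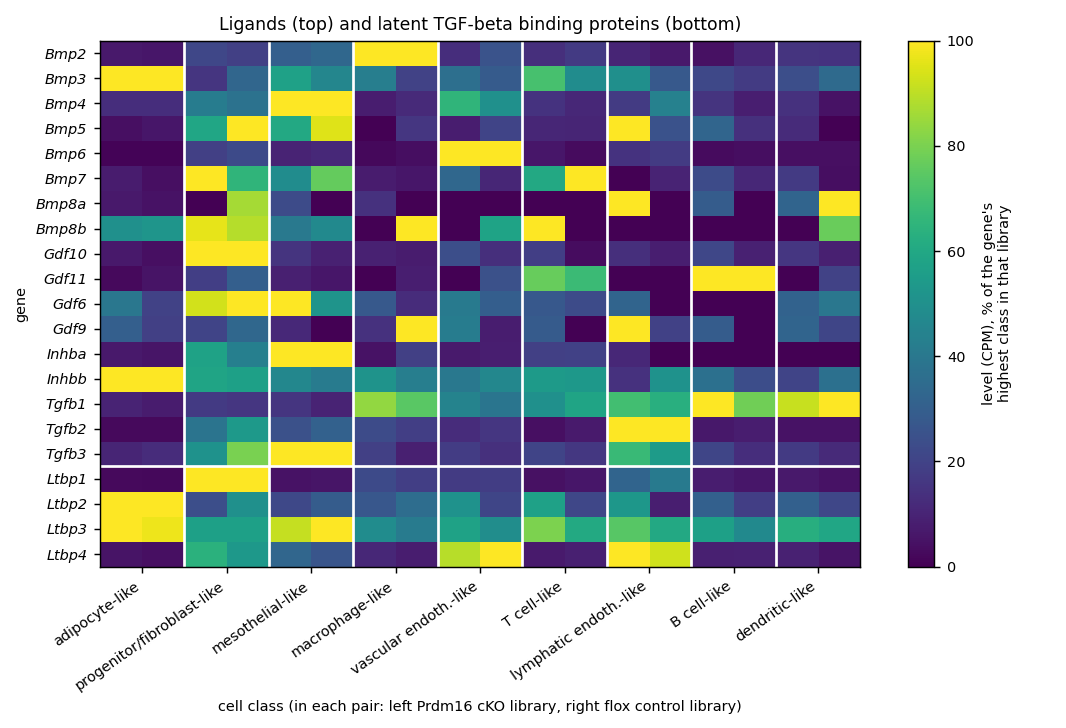
Level of each ligand and latent TGF-beta binding protein in use, as a percent of its highest compared class in the same library (color), in 9 cell classes (columns, the library labelled Prdm16 cKO left of the flox control in each pair). Bmp6 peaks in vascular endothelial-like, Bmp2 in macrophage-like, Gdf10 and Ltbp1 in progenitor or fibroblast-like and Bmp4 in mesothelial-like nuclei in both libraries, while the rows of Bmp8a, Bmp8b, Gdf9 and Gdf11 rest on few UMIs.

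The latent binding proteins differed in class as well. Ltbp1, which tethers latent TGF-beta to fibrillin, stood at 634 CPM (613 to 655) in cKO-labelled and 648 CPM (630 to 667) in control progenitor or fibroblast-like nuclei. Ltbp4, another matrix anchor of latent TGF-beta, was highest in lymphatic endothelial-like nuclei of the cKO-labelled library at 188 CPM, against 167 CPM in its vascular endothelial-like nuclei. In the control library the same classes had 170 and 183 CPM, in the opposite order. Ltbp2, which binds fibrillin but not latent TGF-beta, was highest in adipocyte-like nuclei. Ltbp3, which binds latent TGF-beta, was close between 2 classes. It had 135 CPM in cKO-labelled and 119 CPM in control adipocyte-like nuclei and 123 CPM in cKO-labelled and 121 CPM in control mesothelial-like nuclei. In macrophage-like cluster 4 it was lower, with 63.0 CPM in cKO-labelled and 50.5 CPM in control nuclei. Among the 6 classes with fewer nuclei, smooth muscle-like nuclei had more Ltbp1 than any compared class, with 1194 CPM (1032 to 1373) in the cKO-labelled library and 1526 CPM (1419 to 1639) in the control library.

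On the receiving side, Acvr1c, which encodes ALK7, a type I receptor of activin B and GDF3 known to restrain fat breakdown in adipocytes, was highest in adipocyte-like nuclei. It stood there at 1088 CPM (1078 to 1099) in the cKO-labelled library and at 1436 CPM (1427 to 1446) in the control library. At least 1 Acvr1c UMI was present in 99.3% of cKO-labelled and 99.5% of control adipocyte-like nuclei. In progenitor or fibroblast-like nuclei the shares were 69.1% in the cKO-labelled library and 78.2% in the control library. Median depth was 11913 UMIs in cKO-labelled and 12108 UMIs in control adipocyte-like nuclei, and 5552.5 UMIs in cKO-labelled and 5756 UMIs in control progenitor or fibroblast-like nuclei. With each nucleus thinned to 1000 UMIs, 62.0% of cKO-labelled and 70.2% of control adipocyte-like nuclei had an Acvr1c UMI, against 22.3% of cKO-labelled and 26.4% of control progenitor or fibroblast-like nuclei. Acvr1c outside adipocyte-like nuclei stood close to the adipocyte marker RNA of the same class. In progenitor or fibroblast-like nuclei it was at 23.4% of its adipocyte level in the cKO-labelled library, where the markers were at 21.6%, and at 19.3% in the control library, where the markers were at 17.8%. In vascular endothelial-like nuclei it was at 41.8% with markers at 44.5% in the cKO-labelled library, and at 24.3% with markers at 25.5% in the control library. In control T cell-like nuclei Acvr1c was further from the markers, at 41.2% with markers at 35.6%. The part of adipocyte RNA in the Acvr1c UMIs of these classes was not tested. Acvr1, which encodes ALK2, a type I receptor of BMPs and activins, stood well above the markers in progenitor or fibroblast-like nuclei. It was there at 83.3% of its adipocyte level in the cKO-labelled library and 79.8% in the control library.

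Other receptors peaked elsewhere. Bmpr1b, a type I BMP receptor, stood at 87.0 CPM (77.2 to 97.8) in cKO-labelled and 71.2 CPM (65.0 to 77.9) in control mesothelial-like nuclei, 5.58 times its next class in the cKO-labelled and 6.12 times in the control library, though pancreatic acinar-like nuclei stood higher in both. Bmpr2, the type II BMP receptor that is mutated in heritable pulmonary hypertension, was highest in vascular endothelial-like nuclei at 575 CPM (541 to 612) in the cKO-labelled library and 749 CPM (717 to 782) in the control library. Acvrl1, the endothelial type I receptor ALK1, also led there, with 60.8 CPM (49.9 to 73.4) in the cKO-labelled library and 87.3 CPM (76.7 to 99.1) in the control library. Vascular endothelial-like nuclei thus led for Bmp6, Bmpr2 and Acvrl1, but not for Bmpr1a, Bmpr1b or Acvr1, other type I receptors of BMPs. Whether Bmp6 acts through Bmpr2 or Acvrl1 here was not tested. Tgfbr2, the type II TGF-beta receptor, was highest in lymphatic endothelial-like nuclei at 600 CPM (555 to 647) in the cKO-labelled library and 656 CPM (624 to 691) in the control library. Tgfbr3, the co-receptor betaglycan, was highest in progenitor or fibroblast-like nuclei, at 1.95 times its next class in the cKO-labelled library and 1.91 times in the control library. Tgfbr1, the type I TGF-beta receptor, led in the same class with 192 CPM in cKO-labelled and 191 CPM in control nuclei, as did Acvr2a, a type II activin receptor, with 199 CPM in cKO-labelled and 196 CPM in control nuclei, below its innate lymphoid-like level of 231 CPM in the cKO-labelled and 225 CPM in the control library. Acvr2b, its relative, and Bmpr1a led in mesothelial-like nuclei, Acvr2b with 31.4 CPM in cKO-labelled and 29.0 CPM in control nuclei and Bmpr1a with 332 CPM in cKO-labelled and 349 CPM in control nuclei. Smooth muscle-like nuclei stood higher for Bmpr1a in both libraries and control Schwann-like nuclei for Acvr2b. For Bmpr1a the adipocyte-like level was close, at 321 CPM in the cKO-labelled library and 332 CPM in the control library. Tgfbr3l, a betaglycan-like gene, stayed under 10 CPM in every compared class of both libraries.

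The Smads varied too. Smad1 was highest in lymphatic endothelial-like nuclei, at 404 CPM (368 to 443) in the cKO-labelled library and 419 CPM (393 to 446) in the control library, 3.47 times the vascular endothelial-like level in the cKO-labelled and 3.49 times in the control library. Smad2 and Smad5 led in the same class by less, Smad2 with 199 CPM in cKO-labelled and 203 CPM in control nuclei and Smad5 with 92.1 CPM in cKO-labelled and 121 CPM in control nuclei. Smad9 was highest in mesothelial-like nuclei, at 16.0 CPM in the cKO-labelled library and 15.5 CPM in the control library, with 17.5 CPM in cKO-labelled Schwann-like and 32.4 CPM in control smooth muscle-like nuclei. Smad3 was highest in T cell-like nuclei, at 249 CPM in the cKO-labelled library and 303 CPM in the control library, below its innate lymphoid-like level of 292 CPM in the cKO-labelled and 367 CPM in the control library. Smad4, the common partner, was more even: it lay between 101 and 170 CPM in the 9 classes of the cKO-labelled library and between 114 and 190 CPM in those of the control library. Of the genes that are neither ligand, latent binding protein, receptor nor Smad, Bmp1 led in progenitor or fibroblast-like nuclei. It had 109 CPM there in the cKO-labelled library and 106 CPM in the control library. Tgfb1i1 led in the same class with 24.3 CPM in the cKO-labelled library and 26.5 CPM in the control library, below its smooth muscle-like level in both. Bmp2k was highest in lymphatic endothelial-like nuclei of the cKO-labelled library at 334 CPM and in B cell-like nuclei of the control library at 388 CPM.

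**Figure D2:**
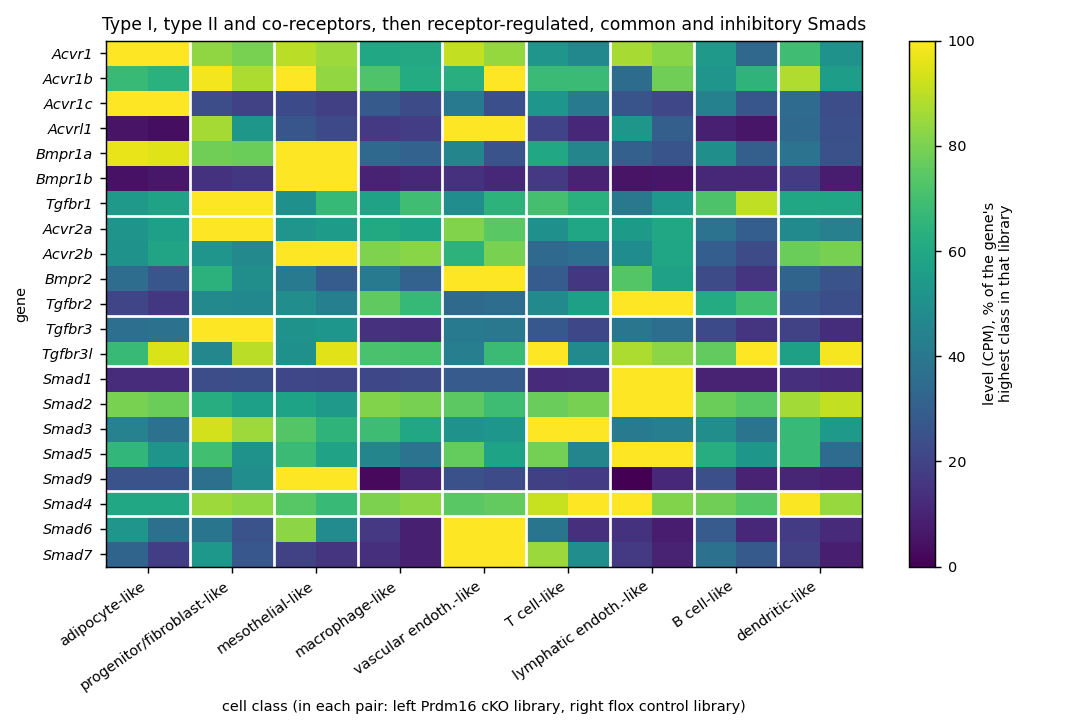
Level of each receptor and Smad, as a percent of its highest compared class in the same library (color), in 9 cell classes (columns, the library labelled Prdm16 cKO left of the flox control in each pair). Acvr1c is highest in adipocyte-like, Bmpr1b and Smad9 in mesothelial-like, Smad1 and Tgfbr2 in lymphatic endothelial-like and Smad6, Smad7, Bmpr2 and Acvrl1 in vascular endothelial-like nuclei in both libraries.

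Between the libraries, a member was called higher or lower in a class when it differed by at least 1.5 times, its interval excluded no difference and it had at least 20 UMIs in the libraries together. Over the 9 classes, 11 of 316 member and class pairs were higher in the cKO-labelled library, against 5.55% of the pairs of all genes, and 11 were lower, against 2.89% of the pairs of all genes. Both members' shares were 3.48%. Neither share is read as a result about the family.

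In adipocyte-like nuclei, the class that Cre targets, 2 of 45 members were called higher with the cKO label, against 5.37% of 17608 genes, and 0 were lower, against 2.86%. The median log2 ratio of the members was -0.04, and that of all genes was 0.04. Ltbp2 stood at 25.3 CPM in the cKO-labelled library and 15.7 CPM in the control library, a log2 ratio of 0.69 (0.56 to 0.82). It was higher in the cKO-labelled library in all 5 adipocyte-like clusters, by log2 ratios of 0.43 to 0.85, though the interval in cluster 8 reached from -0.05 to 0.90. Gdf10 stood at 2.27 CPM in the cKO-labelled library and 1.36 CPM in the control library, a log2 ratio of 0.74 (0.29 to 1.20), on 89 cKO-labelled and 79 control UMIs. Taken alone, clusters 0, 1, 3, 6 and 8 had 1, 0, 4, 0 and 0 members called higher, against 4.41%, 4.78%, 4.41%, 4.80% and 4.14% of their genes.

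Acvr1c had a log2 ratio of -0.40 (-0.42 to -0.38) over all adipocyte-like nuclei, short of 1.5 times. Within clusters the ratio lay between -0.29 and -0.02. Its level differed by cluster, with 1733 CPM in cKO-labelled and 1752 CPM in control nuclei of cluster 0 (led by Nnat, Folh1 and Mageb18) and 800 CPM in cKO-labelled and 826 CPM in control nuclei of cluster 6 (led by Hephl1, Elovl6 and Ppp1r3b). Cluster 0 held 9.25% of cKO-labelled and 40.8% of control adipocyte-like nuclei, and cluster 6 held 27.8% of cKO-labelled and 6.16% of control ones. The pooled Acvr1c difference was thus larger than that in any cluster, beside an unequal mix of clusters. Inhbb, whose log2 ratio over all adipocyte-like nuclei was -0.30 (-0.46 to -0.14), and Bmp3, with -0.22 (-0.40 to -0.05), lost their direction in 3 of the 5 clusters each. Acvr1 had a pooled log2 ratio of -0.15 and was between -0.49 and 0.21 within clusters.

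**Figure D3:**
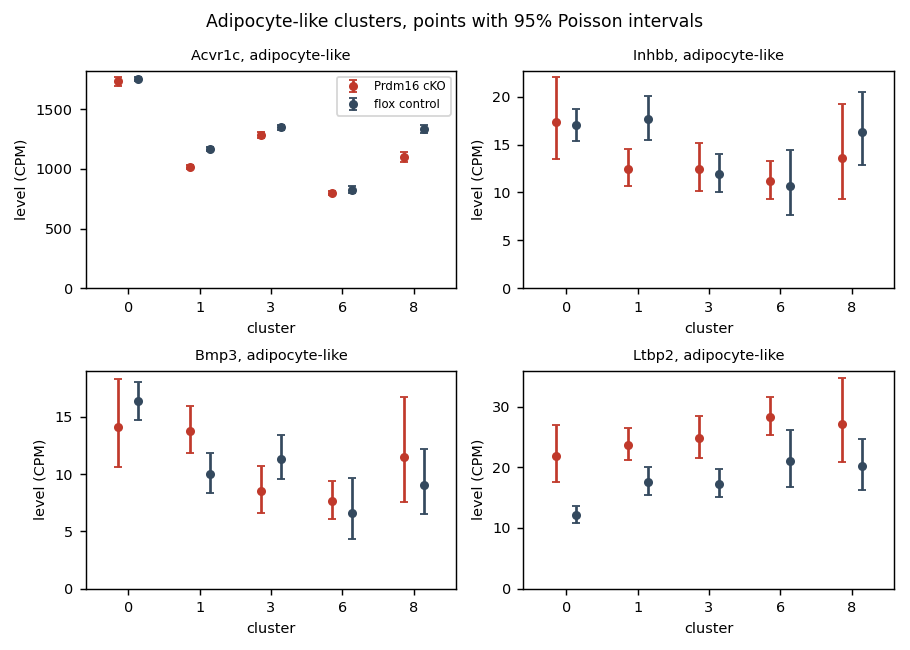
Levels (CPM, with 95% Poisson intervals) of Acvr1c, Inhbb, Bmp3 and Ltbp2 in the 5 adipocyte-like clusters, the library labelled Prdm16 cKO left of the flox control in each pair. Acvr1c runs from 1733 CPM in cKO-labelled and 1752 CPM in control nuclei of cluster 0 to 800 CPM in cKO-labelled and 826 CPM in control nuclei of cluster 6, while Ltbp2 is higher in the cKO-labelled library in each cluster.

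In vascular endothelial-like nuclei, 2 of 33 members were called higher with the cKO label, against 7.47% of genes, and 3 were lower, against 4.09%. Both inhibitory Smads were lower. Smad6 stood at 169 CPM in the cKO-labelled library and 272 CPM in the control library, a log2 ratio of -0.68 (-0.88 to -0.49), and Smad7 at 122 CPM in the cKO-labelled library and 185 CPM in the control library, a log2 ratio of -0.61 (-0.84 to -0.37). Acvr1b, which encodes ALK4, the activin type I receptor, stood at 25.3 CPM in the cKO-labelled library and 44.9 CPM in the control library, a log2 ratio of -0.83 (-1.35 to -0.32). Bmpr1a, a type I BMP receptor, was higher by 0.77 (0.51 to 1.02) and Ltbp2 by 1.99 (0.82 to 3.29), on 23 cKO-labelled and 9 control UMIs for Ltbp2. Bmpr2 had a log2 ratio of -0.38 and Acvrl1 of -0.52, both short of 1.5 times. Adipocyte marker RNA in these nuclei was 44.5% of the adipocyte level in the cKO-labelled library and 25.5% in the control library, and the summed level of 10 vascular endothelial markers was 5701 CPM in the cKO-labelled library and 6850 CPM in the control library. With the adipocyte profile of each library subtracted, Smad6 had a log2 ratio of -0.51 and Smad7 of -0.35, and neither passed the call. Ltbp2 in this class was at 51.1% of its adipocyte level in the cKO-labelled library and at 20.7% in the control library. Bmpr1a was higher in adipocyte-like nuclei than in this class in both libraries. The part of adipocyte RNA in the differences of Ltbp2 and Bmpr1a was not tested.

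The pooled differences of Smad6 and Smad7 were again larger than those inside clusters. Cluster 21, led by Enpp6 and holding Gja5 and Sema3g, had the highest Smad6 and Smad7 in both libraries. It took 18.8% of cKO-labelled and 23.9% of control vascular endothelial-like nuclei. Pooled levels weigh clusters by their UMIs. Cluster 21 held 366870 of the 1775912 UMIs of the class in the cKO-labelled library and 949691 of 2759678 in the control library. Smad6 stood there at 420 CPM in the cKO-labelled library and 582 CPM in the control library, a log2 ratio of -0.47 (-0.74 to -0.21), and Smad7 at 289 CPM in the cKO-labelled library and 379 CPM in the control library, a log2 ratio of -0.39 (-0.72 to -0.08). In clusters 13 and 20 the intervals of both genes included no difference. Bmp6 differed in direction between clusters. It stood at 597 CPM in the cKO-labelled library and 733 CPM in the control library in cluster 13, the largest of the class, a log2 ratio of -0.30 (-0.45 to -0.14), had a ratio of 0.06 in cluster 20, and stood at 1292 CPM in the cKO-labelled library and 822 CPM in the control library in cluster 21, a log2 ratio of 0.65 (0.48 to 0.82). Its pooled ratio was 0.04. Cluster 21 was chosen for description after its values were seen. Prdm16, the gene that the cKO label names, had 205 CPM in cKO-labelled and 376 CPM in control vascular endothelial-like nuclei. These Prdm16 levels are pooled over the clusters of the class.

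The promoters of Smad6 and Acvr1b, a pair of genes lower together in this class, are shown beside their values. They are from RefSeq on GRCm38.p6, 5′ to 3′ on the gene strand, and they span 250 bases before the annotated start and 30 after it. Both genes were chosen after their ratios were seen. The capitals in Smad6 mark GTCTAGAC, the palindromic Smad box, which starts 4 bases before the annotated start.
Smad6 (chr9:64022030-64022309, minus strand): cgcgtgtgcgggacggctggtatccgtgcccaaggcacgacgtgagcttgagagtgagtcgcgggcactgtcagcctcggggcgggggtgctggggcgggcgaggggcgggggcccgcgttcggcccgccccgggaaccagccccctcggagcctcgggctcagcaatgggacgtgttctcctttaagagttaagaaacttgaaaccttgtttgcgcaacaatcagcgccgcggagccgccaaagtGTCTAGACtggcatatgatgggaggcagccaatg
Acvr1b (chr15:101173822-101174101, plus strand): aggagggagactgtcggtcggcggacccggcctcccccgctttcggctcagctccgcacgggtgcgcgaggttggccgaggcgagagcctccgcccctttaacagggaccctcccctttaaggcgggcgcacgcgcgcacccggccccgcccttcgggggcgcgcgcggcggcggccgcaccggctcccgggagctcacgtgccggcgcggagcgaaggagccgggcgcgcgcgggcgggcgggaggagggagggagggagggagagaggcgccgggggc
In all, 7 motifs were searched on both strands in the windows of a few members and of Atoh8 first, and GTCTAGAC was picked for the capitals because it was seen in Smad6. The windows searched held 300 bases, 250 before the start and 50 after it. GTCTAGAC was in 0.213% of all 32851 windows and in 1 of the 51 windows of the 40 members that had any. GGCGCC was in 11.9% of all windows and 23.5% of member windows, CAGAC in 49.6% of all and 47.1% of member windows, and GTCT, which lies inside the palindrome, in 88.0% of all and 88.2% of member windows. GCCG was in 59.2% of all windows and 80.4% of member windows, TTGCNNAA in 10.8% of all and 7.84% of member windows, and AGGTCANAGGTCA in 0.0396% of all and 0% of member windows. A match describes the letters and does not show a bound site.

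In progenitor or fibroblast-like nuclei, 0 of 42 members were called higher with the cKO label, against 4.33% of genes, and 2 were lower, against 2.05%. Tgfb3 stood at 20.8 CPM in the cKO-labelled library and 35.3 CPM in the control library, a log2 ratio of -0.76 (-1.09 to -0.44). It was lower in both clusters of the class, by log2 ratios of -0.69 in cluster 2 and -0.89 in cluster 15, and it kept its call under every alternative run for it. Bmp3 was lower by a log2 ratio of -1.32 (-2.58 to -0.21), on 9 cKO-labelled and 30 control UMIs. Tgfb2, which had a pooled level of 72.7 CPM in the cKO-labelled library and 88.9 CPM in the control library, stood in cluster 15 at 102 CPM in the cKO-labelled library and 238 CPM in the control library, a log2 ratio of -1.23 (-1.63 to -0.85) that was picked out after its values were seen. In cluster 2 its ratio was 0.08.

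**Figure D4:**
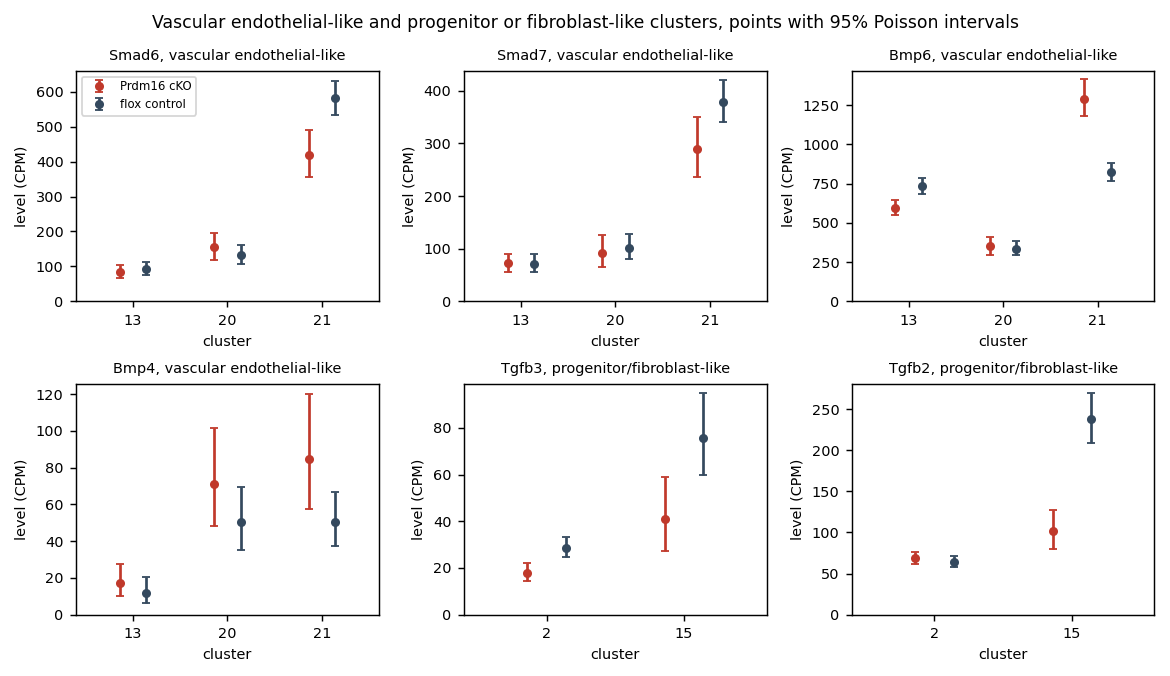
Levels (CPM, with 95% Poisson intervals) of Smad6, Smad7, Bmp6 and Bmp4 in 3 vascular endothelial-like clusters and of Tgfb3 and Tgfb2 in 2 progenitor or fibroblast-like clusters, the library labelled Prdm16 cKO left of the flox control in each pair. Smad6 and Smad7 are highest in cluster 21, and Tgfb3 is lower in the cKO-labelled library in both clusters of its class.

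In mesothelial-like nuclei, 0 of 41 members were called higher with the cKO label, against 4.16% of genes, and 1 was lower, against 2.10%. It was Bmp7, a BMP linked to brown fat, with 4.92 CPM in the cKO-labelled library and 10.2 CPM in the control library and a log2 ratio of -1.05 (-1.93 to -0.25) on 16 cKO-labelled and 69 control UMIs. In macrophage-like nuclei, 0 of 37 members were higher, against 4.19%, and 2 were lower, against 2.04%. Bmp6 had a log2 ratio of -0.74 (-1.32 to -0.19) there, and Gdf9, an oocyte growth factor, had 1 cKO-labelled and 22 control UMIs and a ratio of -3.58 (-8.94 to -0.95). In lymphatic endothelial-like nuclei, 0 of 31 members were higher, against 4.89%, and 3 were lower, against 2.76%. Bmp4 was lower there by -1.41 (-2.39 to -0.54), Acvr1b by -1.30 (-2.17 to -0.51) and Inhbb by -2.15 (-5.30 to -0.09), on 2 cKO-labelled and 18 control UMIs for Inhbb. In cluster 19 Bmp4 had a log2 ratio of -1.60 (-2.80 to -0.58) and Acvr1b of -1.77 (-3.05 to -0.70), and both were called. In cluster 14 both intervals included no difference. Bmp4 had -0.51 (-2.61 to 1.25) there, on 4 cKO-labelled and 11 control UMIs, and Acvr1b had -0.44 (-1.82 to 0.79).

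In the lymphocyte and dendritic classes every call was higher with the cKO label. In T cell-like nuclei, 3 of 33 members were higher, against 6.20% of genes, and 0 were lower, against 3.95%. They were Smad6, with a log2 ratio of 0.80 (0.32 to 1.28), Ltbp2, with 2.12 (0.74 to 3.74), and Bmp6, with 1.01 (0.38 to 1.65), on 19 cKO-labelled and 6 control UMIs for Ltbp2. With each nucleus thinned to 1000 UMIs, Bmp6 turned to -0.70. In B cell-like nuclei, 3 of 27 members were higher, against 7.95%, and 0 were lower, against 4.31%. They were Tgfbr3 with 0.60 (0.37 to 0.82), Smad6 with 0.67 (0.08 to 1.27) and Bmpr1a with 0.64 (0.33 to 0.95). Bmpr1a turned to -0.08 with the adipocyte profile of each library subtracted, and Tgfbr3 to -0.01 by the mean CPM per nucleus. In dendritic-like nuclei, 1 of 27 members, Bmpr1b, was higher by 1.43 (0.30 to 2.62) on 18 cKO-labelled and 12 control UMIs, against 6.53%, and 0 were lower, against 2.41%. Adipocyte marker RNA moved the same way, at 49.4% of the adipocyte level in cKO-labelled and 35.6% in control T cell-like nuclei, at 47.2% in cKO-labelled and 25.7% in control B cell-like nuclei and at 34.8% in cKO-labelled and 24.6% in control dendritic-like nuclei. With the adipocyte profile subtracted, Bmp6 in T cell-like nuclei (1.40) and Bmpr1b in dendritic-like nuclei (1.81) kept their calls, and Smad6 in T cell-like and Tgfbr3, Smad6 and Bmpr1a in B cell-like nuclei lost theirs. The summed level of 8 pancreatic acinar markers was also higher with the cKO label in all 9 compared classes, and in dendritic-like nuclei it was 528 CPM in the cKO-labelled library and 82.2 CPM in the control library. Bmpr1b was highest in acinar-like nuclei, and the part of acinar RNA in its difference was not tested. Without doublet removal, 6 of these 7 calls were lost, all but that of Ltbp2. In cKO-labelled T cell-like nuclei Ltbp2 was at 57.4% of its adipocyte level, where the adipocyte markers were at 49.4%. In control T cell-like nuclei it was at 21.2%, where the markers were at 35.6%. The part of adipocyte RNA in the Ltbp2 difference was not tested.

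**Figure D5:**
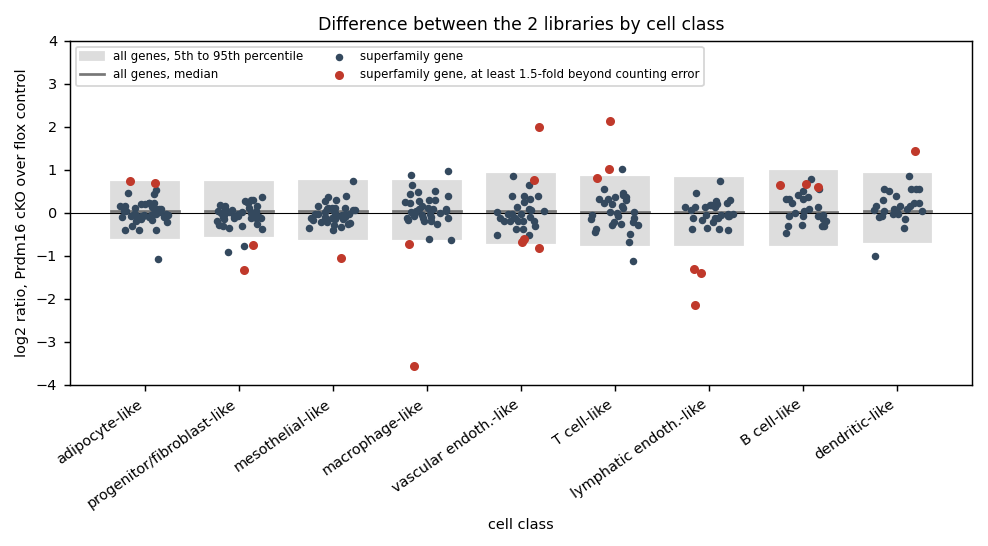
Log2 ratio of the library labelled Prdm16 cKO over the flox control (y axis) for each superfamily gene with at least 20 UMIs in a class (points), with the 5th to 95th percentile of all genes in gray and their median as a line. Most members lie inside the gray range of all genes, and the 22 calls (red) are 11 higher and 11 lower.

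Pathway genes outside the symbol rule, from 5 lists of 72 genes, were counted in the same way. In adipocyte-like nuclei, 1 of 14 antagonists and co-receptors was higher in the cKO-labelled library and 1 was lower. Fst, which encodes follistatin, an activin antagonist, stood at 10.3 CPM in the cKO-labelled library and 4.59 CPM in the control library, a log2 ratio of 1.16 (0.94 to 1.39). Bmper, a BMP-binding protein, stood at 19.2 CPM in the cKO-labelled library and 40.8 CPM in the control library, a log2 ratio of -1.09 (-1.21 to -0.97). Among the target genes, Atoh8 was lower by a log2 ratio of -0.65 (-1.06 to -0.25) and Cdkn1a by -0.63 (-1.08 to -0.21). Thbs1, an activator of latent TGF-beta, was the only one of 11 storage and activation genes to change, by -1.49 (-1.80 to -1.19). Tgif2, a Smad corepressor, was the only one of 16 intracellular regulators, by 1.09 on 20 cKO-labelled and 14 control UMIs. None of 3 other superfamily ligands and receptors changed by the same rule, whose background in this class was 5.37% higher and 2.86% lower. These adipocyte-like values are pooled over clusters whose mix was unequal between the libraries. Values of these pathway genes within clusters are not given here. In vascular endothelial-like nuclei, 3 of 11 target genes were lower, against 4.09% of all genes: Ccn2 by -1.19 (-2.04 to -0.42), Atoh8 by -0.97 (-1.72 to -0.27) and Cdkn1a by -1.95 (-4.36 to -0.17), on 3 cKO-labelled and 18 control UMIs for Cdkn1a. Id1 and Id3, targets of BMP Smads, had log2 ratios there of 0.02 (-0.46 to 0.49) and -0.03 (-0.57 to 0.49). The vascular endothelial-like values are also pooled over clusters whose mix was unequal between the libraries. Of the other lists in that class, 1 of 10 antagonists was higher (Chrdl1, a BMP antagonist, by 0.66) and 1 was lower (Fstl1), 1 of 15 intracellular regulators was higher (Pmepa1), and 0 of 8 storage and activation genes changed, against 7.47% of all genes higher. Chrdl1 was also higher in T cell-like nuclei by 1.29 (0.93 to 1.66), in B cell-like nuclei by 1.03 (0.65 to 1.41) and in dendritic-like nuclei by 1.01 (0.55 to 1.48). Its level in adipocyte-like nuclei, 207 CPM in the cKO-labelled library and 182 CPM in the control library, was above its level in each of these classes. In progenitor or fibroblast-like nuclei, 2 of 10 storage and activation genes were lower, against 2.05% of all genes, Thbs1 by -0.85 (-1.38 to -0.35) and Fbn2 by -0.61 (-0.93 to -0.29), and none of 14 antagonists, 15 regulators and 13 targets changed. In lymphatic endothelial-like nuclei, 3 of 9 storage and activation genes were lower, against 2.76% of all genes: Itgb8, an integrin subunit that activates latent TGF-beta, by -1.74 (-2.87 to -0.78), Lrrc32, a cell-surface anchor of latent TGF-beta, by -1.30 (-2.45 to -0.30) and Nrros, its relative, by -0.64 (-1.22 to -0.09). In the same class 2 of 7 target genes were higher, against 4.89% of all genes, Id2 by 1.34 (0.15 to 2.57) and Id3 by 0.90 (0.02 to 1.78), as was 1 of 15 intracellular regulators, Tab1 by 1.08 (0.46 to 1.71), and none of 10 antagonists changed. In macrophage-like nuclei, 1 of 11 antagonists (Twsg1) and 1 of 8 targets (Postn) were higher, against 4.19% of all genes. In mesothelial-like nuclei none of 13 antagonists, 9 storage genes, 16 regulators and 11 targets changed. In T cell-like nuclei, beside Chrdl1 (of 9 antagonists), Itgb5 (of 6 storage genes) and Zfyve9 (of 14 regulators) were higher, against 6.20%. Fbn1 (of the same 6 storage genes) and Postn (of 6 targets) were lower there, against 3.95%. In B cell-like nuclei, beside Chrdl1 (of 10 antagonists), Pmepa1, Zfyve9 and Hipk2 (of 15 regulators) were higher, against 7.95%. Fbn1 (of 5 storage genes) was lower there, against 4.31%. In dendritic-like nuclei, beside Chrdl1 (of 10 antagonists), Zfyve9 (of 15 regulators) was higher, against 6.53%. Runx2 (of 7 targets) was lower there by -1.75 (-2.21 to -1.32), against 2.41%.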

How the data were processed

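The values are whole-number UMI counts per gene and barcode, as deposited by the authors for each library (10x 3′ nuclei, aligned to mm10 with Cell Ranger 6.1.2, per the submitters' processing notes). Barcodes with under 500 UMIs, under 300 genes or over 5% mitochondrial counts were dropped. Of 8086 cKO-labelled and 12060 control barcodes, 7374 cKO-labelled and 10532 control ones remained. Scrublet's own threshold marked 0% of cKO-labelled and 0.009% of control nuclei, so a preset 0.8% per 1000 nuclei was taken by score, which removed 495 cKO-labelled and 1079 control nuclei. Scrublet was run through scanpy 1.11.5. Clustering used 2000 variable genes without the 55 members, 30 components, 20 neighbours and Leiden resolution 1.0. It was run with scikit-learn 1.9.0, igraph 0.11.9 and leidenalg 0.10.2. A cluster was named from at least 3 markers. The rule by which Prox1 moved a cluster, number 19, from vascular to lymphatic endothelial-like, and the naming score, were set after the clusters were seen. Cluster 5, with 955 cKO-labelled and 416 control nuclei, stayed unnamed, and it and an intestinal epithelial-like class are not described.

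Counts were summed per class and library, with exact Poisson intervals on levels, exact binomial intervals on ratios and Clopper-Pearson intervals on shares. Intervals and calls were checked on simulated counts. Named members were those called in a compared class or in their own class of highest level, and every member was accounted for by its UMI total. Members, lists and tests were chosen with earlier results of these data known. Alternatives included thinning, doublets kept, TMM scaling (edgeR 4.0.16, R 4.3.3) and subtraction of free RNA. The depth per class sets the intervals. The sample labels give mesenteric fat and nuclear RNA, while the series text speaks of thoracic and abdominal fat and total RNA. The sample labels were followed. The results of some pathway genes outside the symbol rule are not reported here.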

Additional observations from a re-analysis of the deposited data

Results flagged for a closer look

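Smad6, an inhibitory Smad, moved in opposite directions in different classes: its log2 ratio of the cKO-labelled over the control library was -0.68 in vascular endothelial-like nuclei, against 0.80 in T cell-like and 0.67 in B cell-like nuclei. Bmp6 did the same, with -0.74 in macrophage-like and 1.01 in T cell-like nuclei. The difference between the classes was not tested, since each library stands for 1 genotype without replicates. Thinned to 1000 UMIs a nucleus, Bmp6 in T cell-like nuclei turned to -0.70, the sign it had in macrophage-like nuclei. Adipocyte marker RNA was higher in the cKO-labelled library in each of these classes. With the adipocyte profile subtracted, Smad6 kept its signs, at -0.51 in vascular endothelial-like, 3.83 in T cell-like and 1.04 in B cell-like nuclei. It lost all 3 calls. Before subtraction, Smad6 in T cell-like nuclei stood at 65.8 CPM in the cKO-labelled library and 37.8 CPM in the control library. The levels left after subtraction and their intervals are not given here, so the size of the 3.83 is not read. Bmp6 kept both calls, at -0.73 in macrophage-like and 1.40 in T cell-like nuclei.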

How the results depend on the processing

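Of 51 values of a member in a class, 22 were called. 2 of the called values kept their direction and call under every alternative run for them, 5 changed sign under some alternative, and 9 of all 51 did so. Counts of calls moved as follows. Thinned to 1000 UMIs, adipocyte-like nuclei had 1 member higher and 2 lower, and the 9 classes had 2 pairs higher and 7 lower. With each library clustered on its own, 17 pairs were higher and 17 lower. At 2 times in place of 1.5 times, 0 adipocyte members were higher, with 4 pairs higher and 6 lower. With 10% free RNA subtracted, 18 pairs were higher and the adipocyte median was 0.0193. With the adipocyte profile subtracted, 7 pairs were lower. Within adipocyte-like clusters 0, 1, 3, 6 and 8, 1, 0, 4, 0 and 0 members were higher, and the median turned to 0.0305, 0.0847, 0.0591 and 0.0669 in clusters 0, 1, 3 and 8.

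Values that changed sign were Smad6 in vascular cluster 20 (0.2143), Smad7 in vascular cluster 13 (0.0136), Bmp6 in T cell-like nuclei when thinned (-0.7045), Tgfbr3 in B cell-like nuclei by mean CPM per nucleus (-0.0104) and Bmpr1a there with the adipocyte profile subtracted (-0.0784). Inhbb turned in adipocyte-like clusters 0, 3 and 6 (0.0304, 0.0672 and 0.0674), Acvr1 in cluster 0 (0.2059), Bmp3 in clusters 1, 6 and 8 (0.4659, 0.2083 and 0.3458), and Bmpr1b in mesothelial-like nuclei with doublets kept (-0.0226) and in cluster 7 (-0.0535). The cause was not tested. Within-cluster values outside adipocyte-like nuclei were chosen after seeing the data, and the tolerance of 0.1 on the log2 scale for a moved median was an arbitrary choice. TMM scaling shifted log2 ratios by between -0.08 and -0.03. No paired analysis was possible because each genotype had 1 library and the labels carry no replicate numbers. Depth limits values that rest on few UMIs, as their intervals show.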

Other observations

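Classes with fewer nuclei gave levels only. Bmp7 was highest in natural killer or innate lymphoid-like nuclei, at 90.1 CPM (63.4 to 124) in the cKO-labelled library and 66.0 CPM (50.8 to 84.5) in the control library. Bmpr1b was highest in pancreatic acinar-like nuclei, with 282 CPM in the cKO-labelled library and 220 CPM in the control library. Bmp5 had 17.4 CPM in cKO-labelled and 71.8 CPM in control pericyte-like nuclei, on 5 and 24 UMIs. Inhba, the activin A subunit, had 36.7 CPM in cKO-labelled and 46.6 CPM in control smooth muscle-like nuclei. These classes held between 25 and 177 nuclei in the cKO-labelled library and between 31 and 223 nuclei in the control library.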
